A study of Mus musculus with 2 samples.

Results

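The immediate early and NR4A genes described here are Fos, Fosb, Jun and Junb of the AP-1 family, Egr1, Egr2 and Egr3 of the EGR family, and Nr4a1, Nr4a2 and Nr4a3 of the NR4A family. They were chosen by symbol, and all 10 were found once among the 32285 genes of the expression matrices. The matrices hold 2 droplet single-cell RNA-seq libraries of CD45+ cells, that is leukocytes, from MC38 colon carcinoma grown under the skin of both flanks of C57BL/6 mice. In both libraries, microwave ablation (MWA) was applied to the right tumor alone, at a volume near 300.0 mm3, and the left, non-ablated tumor was taken on day 8. The MWA library had no further treatment named in its labels. In the tumor growth experiments of the paper, the MWA group also received an isotype control antibody. Whether the mice of this library did is not stated. The MWA plus TIGIT library came from mice that also received anti-TIGIT antibody by intraperitoneal injection, 3 times at intervals of 3 days from day 1. Each condition is 1 library, the number of mice behind a library is not given in the sources used here, and an untreated tumor was not analysed here. The comparison of the libraries therefore has no replicate check: no test was made, and the 95% intervals below cover counting error only. Those of levels and ratios count each captured messenger as independent, although many can come from 1 cell, so differences between cells are not covered.

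Immediate early genes are transcribed within minutes of a stimulus, from factors already present in the cell, and their messengers are short-lived. FOS and JUN proteins pair to form AP-1, EGR proteins are zinc finger factors induced downstream of MAP kinase signalling, and the NR4A proteins are orphan nuclear receptors that are active without a known ligand. In T cells Nr4a1 and Egr genes follow antigen receptor signalling and the NR4A factors are part of the exhaustion program, whereas in myeloid cells Nr4a1 is needed for patrolling monocytes. The same genes are known to be induced when tissue is dissociated enzymatically, as these tumors were before magnetic and flow sorting, and the part of that step in the levels below was not tested.

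Most of the members are short genes, and most with a promoter entry hold cAMP response letters. In GENCODE vM21 (GRCm38) their median span was 6063 bases, against 22934 bases for 12797 protein-coding genes with at least 20 UMIs (unique molecular identifiers, each counting 1 captured messenger). Nr4a3, at 41295 bases, was longer than 68.5% of those genes, and Nr4a1 spanned 20527 bases. Jun and Junb have a single exon and each NR4A gene has 8 in its longest coding transcript. All 10 carry the AU-rich pentamer ATTTA in the 3′ UTR, as do 63.7% of those genes, and 7 carry it at least 3 times, as do 32.7%. Among the 250 bases before the RefSeq transcription start, the core letters TGACG of the cAMP response element were sought on either strand. They were found in 7 of the 8 members with an entry and in 17.8% of 32851 promoters. Egr2 has 5 entries, and a match in any of them counted for it, whereas the percentages are per entry. Nr4a1, Nr4a2 and Nr4a3 each held 4 such cores, a number reached by 45 promoters, or 0.137%. The letters TATAAA stood in Fos and Nr4a2 (12.4% of promoters). The full cAMP response element TGACGTCA, the AP-1 site TGANTCA, the EGR site GCGTGGGCG and the NR4A site AAAGGTCA were found in no window of these 8 genes. The CArG box, bound by serum response factor, was found in Egr2 (1.47% of promoters), and the NF-kB site in Fos, Fosb and Egr2 (7.25%). These are matches of letters only. The 5 stretches shown are those of the 3 NR4A genes, which hold the most cores, of Fos, with 2 cores and a TATA box, and of Junb, with 1 core. Capitals mark TGACG or its complement CGTCA, and TATAAA or its complement TTTATA. All are from GRCm38.p6 in the RefSeq table and run 5′ to 3′ along the gene. They lie at chr15:101266596-101266845 (plus strand, within the span of longer annotated transcripts) for Nr4a1, chr2:57124004-57124253 (minus) for Nr4a2, chr4:48045055-48045152 (plus, the first 98 bases of the window, with 3 of its 4 cores) for Nr4a3, chr12:85473640-85473889 (plus) for Fos and chr8:84978749-84978998 (minus) for Junb.
Nr4a1: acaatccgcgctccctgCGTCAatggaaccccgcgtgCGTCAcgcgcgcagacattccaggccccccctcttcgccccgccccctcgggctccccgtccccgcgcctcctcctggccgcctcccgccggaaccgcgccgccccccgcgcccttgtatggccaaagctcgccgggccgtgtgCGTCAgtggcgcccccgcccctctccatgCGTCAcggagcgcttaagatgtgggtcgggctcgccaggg
Nr4a2: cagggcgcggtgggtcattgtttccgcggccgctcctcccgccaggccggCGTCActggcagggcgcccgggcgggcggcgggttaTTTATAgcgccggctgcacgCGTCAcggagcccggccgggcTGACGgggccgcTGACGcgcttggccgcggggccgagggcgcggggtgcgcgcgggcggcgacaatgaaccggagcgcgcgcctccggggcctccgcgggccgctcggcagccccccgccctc
Nr4a3: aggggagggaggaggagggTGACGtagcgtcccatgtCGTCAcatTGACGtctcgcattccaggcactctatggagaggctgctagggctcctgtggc
Fos: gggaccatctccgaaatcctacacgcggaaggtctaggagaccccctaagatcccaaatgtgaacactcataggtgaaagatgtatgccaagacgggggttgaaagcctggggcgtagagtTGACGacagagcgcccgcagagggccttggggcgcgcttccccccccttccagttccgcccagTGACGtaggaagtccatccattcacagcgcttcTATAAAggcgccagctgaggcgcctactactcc
Junb: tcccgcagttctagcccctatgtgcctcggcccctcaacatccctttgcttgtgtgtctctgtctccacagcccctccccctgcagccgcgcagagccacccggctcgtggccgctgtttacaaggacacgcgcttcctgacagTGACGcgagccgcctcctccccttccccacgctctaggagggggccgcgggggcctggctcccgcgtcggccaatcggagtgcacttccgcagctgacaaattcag

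The MWA library held 10217 cell barcodes with 66152465 UMIs and the MWA plus TIGIT library 10190 barcodes with 78751205 UMIs, of which 9231 and 9127 cells were kept. Of the kept cells, 28 barcodes occurred in both libraries. Clusters were built without the members and related genes and were named from marker genes, so each name means a class with that marker pattern ("CD8 T-like"); 26 of 32 clusters could be named, and 1332 kept cells stayed in clusters that could not. The broad classes were CD8 T-like (1964 and 2070 cells), conventional CD4 T-like (716 and 545), regulatory T-like (708 and 572), NK-like (174 and 114), neutrophil-like (87 and 77), monocyte-like (740 and 832), tumor-associated macrophage-like (TAM-like, 3637 and 3801) and dendritic-like cells (133 and 109). Median depth ran from 903 and 1168 UMIs in neutrophil-like cells to 8804 and 10857 in TAM-like cells. Levels are given as CPM, a gene's UMIs summed over the cells of a class in a library and scaled by all UMIs of these cells; pairs of values give the MWA library first. No gene's level is compared with that of another gene.

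**Figure D1:**
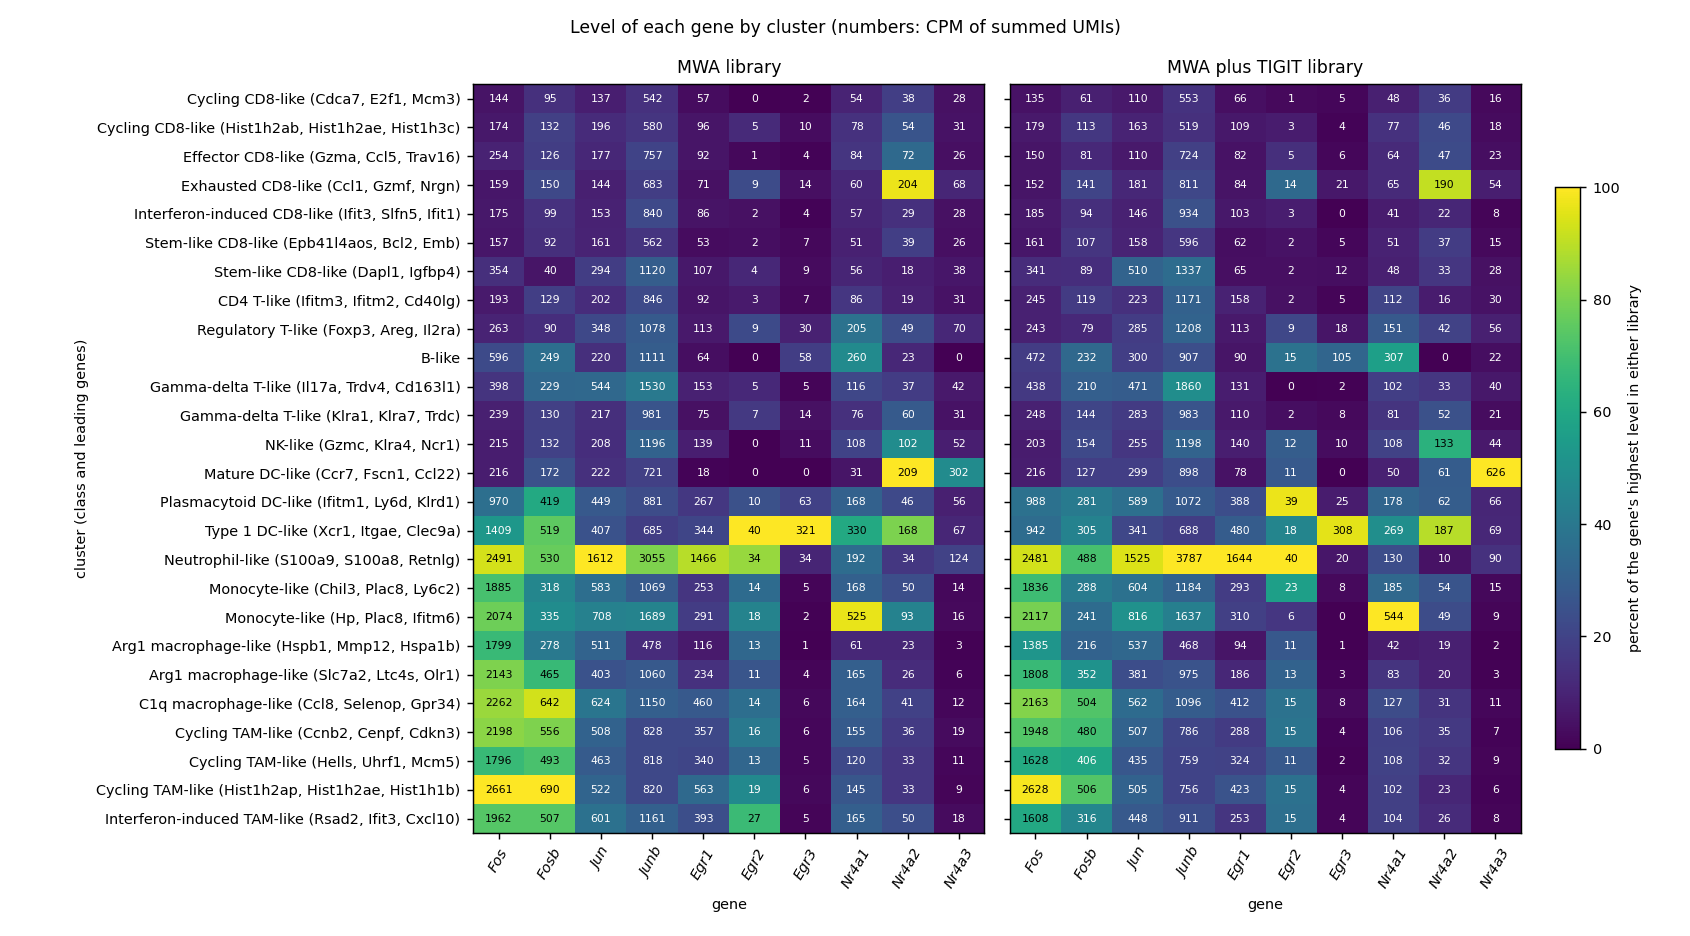
Level of each of the 10 genes (columns) in the 26 named clusters (rows, with leading genes) of the MWA library (left) and the MWA plus TIGIT library (right). The number in a cell is the CPM of summed UMIs and the color is the percent of that gene's highest level in either library. Fos stands high in all monocyte-, macrophage- and neutrophil-like clusters, Jun, Junb and Egr1 stand highest in the neutrophil-like cluster, and Egr3, Nr4a1, Nr4a2 and Nr4a3 each stand high in a few clusters.

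Fos, which pairs with JUN proteins to form AP-1, separated myeloid from lymphoid cells. It stood at 2138 and 1912 CPM in TAM-like cells, 1907 and 1863 CPM in monocyte-like cells and 2491 and 2481 CPM in neutrophil-like cells, but at 179.8 and 168 CPM in CD8 T-like cells. The TAM-like level was 11.9 times that of CD8 T-like cells in the MWA library (95% interval 11.3 to 12.5) and 11.4 times in the MWA plus TIGIT library (10.8 to 11.9). Over the 26 clusters Fos was highest in the cycling TAM-like cluster led by Hist1h2ap (2661 and 2628 CPM) and lowest in the cycling CD8-like cluster led by Cdca7 (144 and 135 CPM). The first of these did not stand apart from the neutrophil-like cluster beyond counting error in either library. Among dendritic-like cells, the mature cluster (Ccr7, Fscn1, Ccl22) was the exception to the myeloid pattern. Its Fos level of 216 CPM in both libraries, from 35 and 39 UMIs, was in the range of the T cell clusters.

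Fosb, a FOS relative with the same partners, followed Fos over the clusters, with 533 and 409.6 CPM in TAM-like cells and 114 and 97.1 CPM in CD8 T-like cells. Within CD8 T-like cells the exhausted-like cluster (Ccl1, Gzmf, Nrgn) held more Fosb than the other CD8 clusters, 150.1 against 106 CPM in the MWA library (1.42-fold, 1.24 to 1.63) and 141 against 90.0 CPM in the other (1.56-fold, 1.33 to 1.83). Its Fos level was not higher (159 against 185 CPM and 152 against 171 CPM).

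Jun, the central AP-1 partner, was highest in neutrophil-like cells at 1612 and 1525 CPM. The next cluster, the monocyte-like one led by Hp, stood at 708 and 816 CPM, and the gap was larger than counting error in both libraries. Junb, a JUN relative that also restrains its activity, was likewise highest in neutrophil-like cells (3055 and 3787 CPM). Unlike Fos, Junb was spread over lymphoid and myeloid cells: the TAM-like level was 1.46 and 1.28 times that of CD8 T-like cells. High Junb marked the gamma-delta T-like cluster led by Il17a (1530.2 and 1860.4 CPM) and the Hp monocyte-like cluster (1689 and 1637 CPM). The lowest Junb of all clusters, in both libraries, was in the Arg1 macrophage-like cluster led by Hspb1 and Mmp12 (478 and 468 CPM), where Fos remained at 1799 and 1385 CPM.

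Egr1, the best known EGR factor, was highest in neutrophil-like cells (1466 and 1644 CPM, from 130 and 165 UMIs) and came next at 563 CPM in the Hist1h2ap cycling TAM-like cluster of the MWA library and at 480.0 CPM in type 1 dendritic-like cells of the MWA plus TIGIT library. It was 4.71 and 3.59 times higher in TAM-like than in CD8 T-like cells. In the mature dendritic-like cluster it was nearly undetected in the MWA library, with 3 UMIs in 29 cells, and in the MWA plus TIGIT library 9 of its 14 UMIs came from 1 cell. Egr2, which restrains T cell activation and takes part in macrophage programs, was scarce everywhere, at no more than 39.9 CPM in any cluster. Within CD8 T-like cells it was higher in the exhausted-like cluster, 9.18 against 2.18 CPM and 13.6 against 2.87 CPM, but these rest on 17 and 19 UMIs there.

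Egr3, a partner of Egr2 in the T cell receptor response, was concentrated in type 1 dendritic-like cells (Xcr1, Itgae, Clec9a). They held 153 UMIs in 42 of 55 cells of the MWA library and 102 UMIs in 20 of 28 cells of the MWA plus TIGIT library. This made 321 and 308 CPM, against 40.8 and 17.8 CPM in the other dendritic-like cells, a 7.87-fold (4.87 to 13.4) and a 17.3-fold difference (9.28 to 35.8). No UMI of Egr3 was found in the mature dendritic-like cluster of either library, where 3 UMIs would make 18.5 and 16.6 CPM. The next highest levels were in the B-like cluster (57.9 and 104.9 CPM, 10 and 14 UMIs) and in plasmacytoid dendritic-like cells (62.7 and 25.1 CPM). The leading genes of the plasmacytoid cluster include its markers Ly6d, Siglech and Cox6a2. They also include Cd209a and Cd209d, listed here as type 2 dendritic markers, so that the cluster may hold both kinds of cell. Lower levels were found in regulatory T-like cells (29.9 and 17.6 CPM) and in exhausted-like CD8 cells (13.5 and 20.7 CPM).

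**Figure D2:**
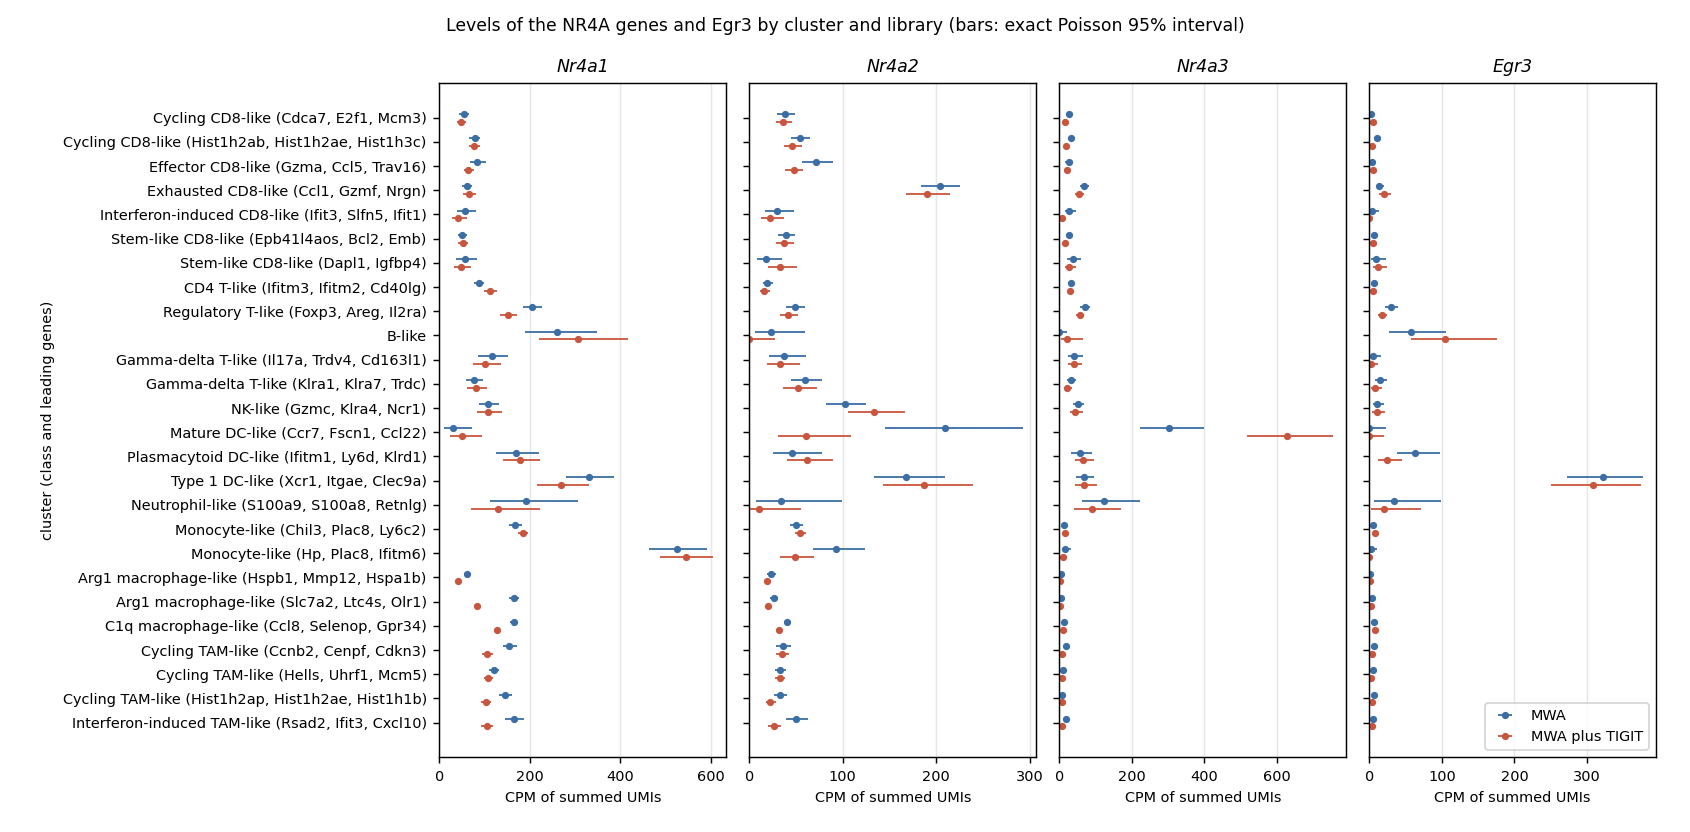
Levels of Nr4a1, Nr4a2, Nr4a3 and Egr3 (horizontal axis, CPM of summed UMIs, with a scale of its own in each panel) in the 26 named clusters, with blue points for the MWA library, red points for the MWA plus TIGIT library and bars for the exact Poisson 95% interval. Nr4a1 peaks in the Hp monocyte-like cluster (525 and 544 CPM), Nr4a2 in exhausted-like CD8 cells and dendritic-like cells, Nr4a3 in the mature dendritic-like cluster (302 and 626 CPM) and Egr3 in type 1 dendritic-like cells (321 and 308 CPM).

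The 3 NR4A genes differed in where they stood high. Nr4a1, also known as Nur77, was highest in the monocyte-like cluster led by Hp, Plac8 and Ifitm6, whose leading genes also include Ace. There it stood at 525 CPM (265 UMIs in 86 of 118 cells) and 544 CPM (346 UMIs in 86 of 114 cells), against 168 and 185 CPM in the monocyte-like cluster led by Chil3. Both gaps to the next cluster were beyond counting error. Monocyte-like cells as a whole held 1.48 and 2.22 times the level of TAM-like cells. Type 1 dendritic-like cells (329.8 and 269 CPM) and B-like cells (260.5 and 307 CPM) followed, without a difference between them beyond counting error. Of the T cell classes, regulatory T-like cells held the most, at 205 and 151 CPM against 63.2 and 59.4 CPM in CD8 T-like cells. The exhausted-like CD8 cluster did not differ from the other CD8 clusters in Nr4a1 beyond counting error (60.5 against 63.8 CPM and 65.1 against 58.5 CPM).

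Nr4a2, also known as Nurr1, marked exhausted-like CD8 cells. They held 377 UMIs in 157 of 321 cells and 266 UMIs in 115 of 225 cells, or 204 and 190.2 CPM, against 45.6 and 40.03 CPM in the other CD8 clusters. The difference was 4.46-fold (3.85 to 5.17) and 4.75-fold (4.03 to 5.59). Type 1 dendritic-like cells (168 and 187 CPM) were not below the exhausted-like cluster beyond counting error in either library. The mature dendritic-like cluster stood at 209 CPM in the MWA library, the highest level of all there but with only 34 UMIs, and at 61.0 CPM in the other. NK-like cells held 102 and 133 CPM, and conventional CD4 T-like cells 19.0 and 16.0 CPM.

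Nr4a3, also known as Nor1 and linked to dendritic cell migration, stood out in the mature dendritic-like cluster, with 49 UMIs in 17 of 29 cells and 113 UMIs in 18 of 27 cells. These levels of 302 and 626 CPM compare with 62.9 and 67.6 CPM in the other dendritic-like cells, 4.80-fold (3.16 to 7.28) and 9.27-fold (6.62 to 13.1). The single highest cell held 9 and 18 of those UMIs. When the members were allowed among the genes used for clustering, the log2 difference shrank from 2.26 to 1.08 and from 3.21 to 1.75. Nr4a3 was also higher in exhausted-like than in other CD8 cells, 68.0 against 28.3 CPM (2.40-fold, 1.91 to 3.00) and 53.6 against 18.01 CPM (2.98-fold, 2.23 to 3.94). TAM-like cells held little of it, 10.0 and 6.81 CPM.

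Messenger RNA from burst cells can be caught in any droplet, and its part in the lymphoid levels of Fos was not tested. As a description, these levels are set beside a reference that covers macrophage messengers only. The complement genes C1qa, C1qb and C1qc, made by macrophages, stood in CD8 T-like cells at 1.96% and 1.82% of their TAM-like level. Fos stood there at 8.41% and 8.80% of its TAM-like level. In conventional CD4 T-like cells C1q genes were at 2.11% and 1.91% and Fos at 9.05% and 12.8%; in NK-like cells the values were 1.61% and 1.83% for C1q and 10.0% and 10.6% for Fos.

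**Figure D3:**
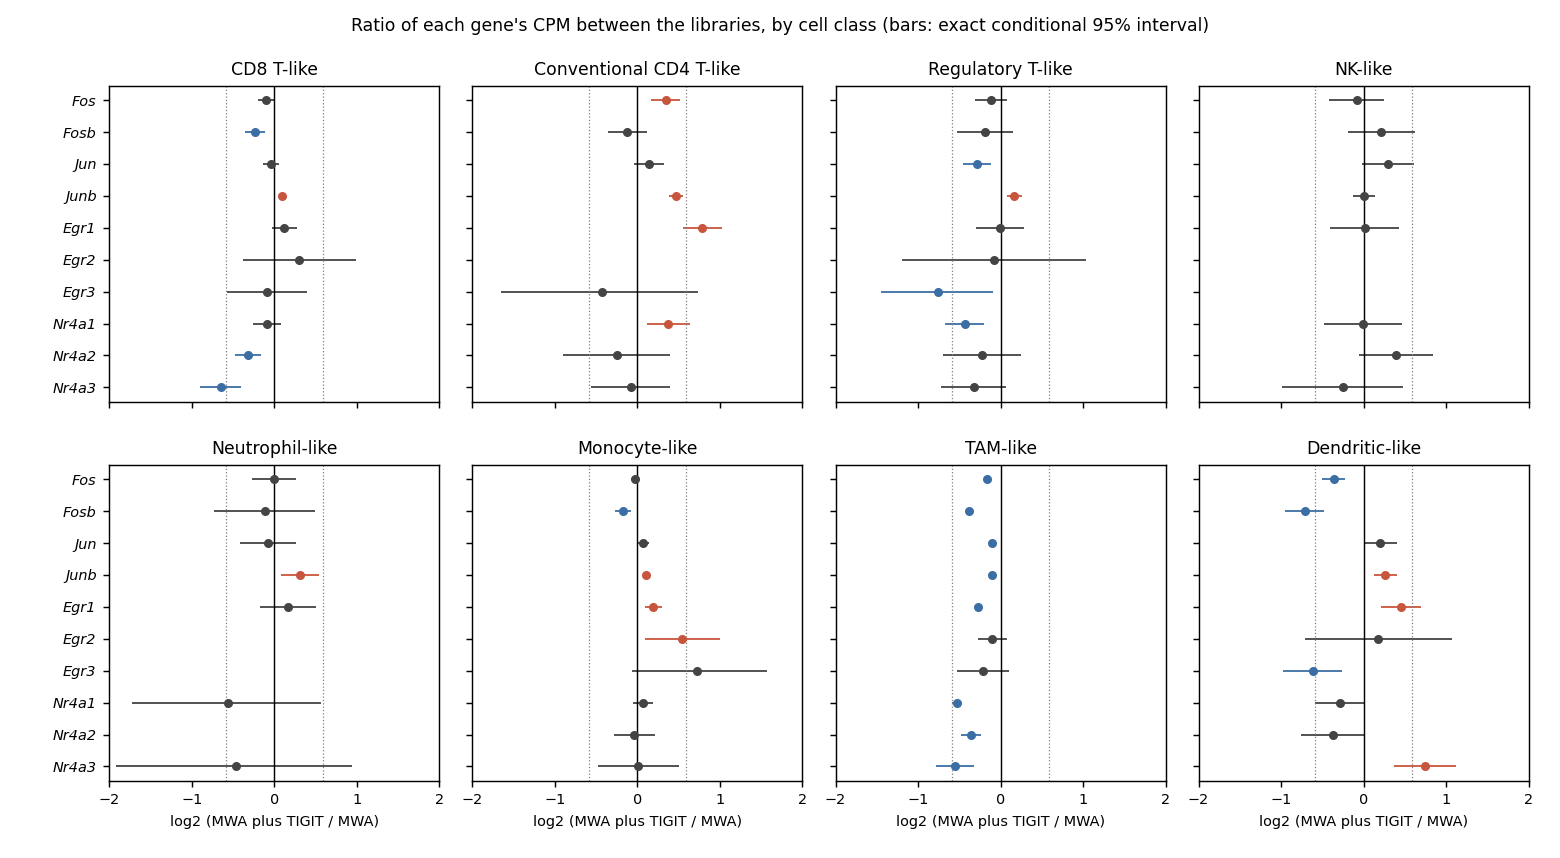
Log2 ratio of CPM, MWA plus TIGIT over MWA (horizontal axis), for each gene in the 8 broad classes, with bars for the exact conditional 95% interval. Blue marks an interval below 0, red one above 0 and grey one that includes 0; dotted lines mark 1.5-fold, and genes with fewer than 20 UMIs in both libraries together have no point. All 10 points lie left of 0 in TAM-like cells, while Fos, Junb, Egr1 and Nr4a1 lie right of 0 in conventional CD4 T-like cells.

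Between the libraries, the clearest pattern was in TAM-like cells, where all 10 genes were lower in the MWA plus TIGIT library, 8 of them with an interval below 0. Of the 12827 genes with at least 20 UMIs in that class, 39.5% were lower by any amount and 8.79% had an interval below 0. None of the 10 passed 1.5-fold, where 3.05% of all genes were lower and 2.77% higher. The median log2 ratio of the 10 genes was -0.24, against 0.04 over all genes. Nr4a3 and Nr4a1 had the most negative ratios. Nr4a1 stood at 142 and 99.0 CPM (log2 ratio -0.52, -0.58 to -0.46), Nr4a3 at 10.0 and 6.81 CPM (-0.56, -0.79 to -0.33). Fosb (533 and 409.6 CPM, -0.38), Nr4a2 (34.1 and 26.6 CPM, -0.36, -0.48 to -0.24) and Egr1 (354 and 294 CPM, -0.27) followed, and Fos, Jun and Junb differed least among those with an interval below 0 (-0.16, -0.11 and -0.10). The share of TAM-like cells with a UMI, after thinning each cell to 1000 UMIs, was 13.1% and 8.16% for Nr4a1 and 74.6% and 68.1% for Fos; before thinning it was 48.1% and 38.9% for Nr4a1 and 94.6% and 91.6% for Fos.

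**Figure D4:**
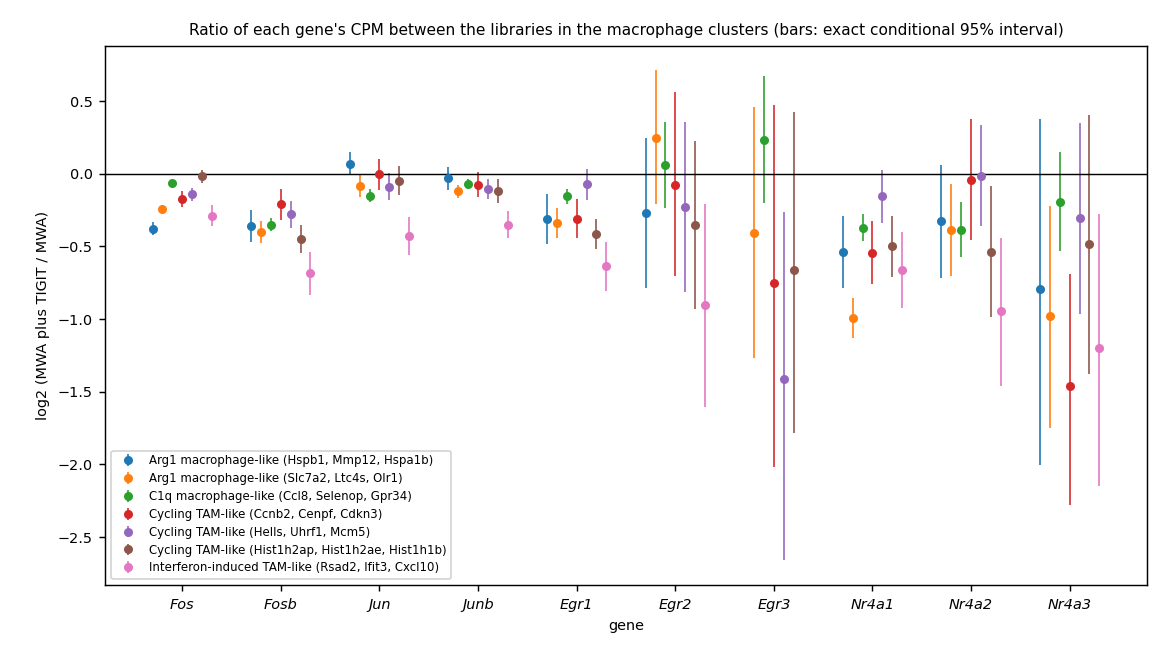
Log2 ratio of CPM, MWA plus TIGIT over MWA (vertical axis), for each gene (horizontal axis) in the 7 macrophage-like clusters (colors), with bars for the exact conditional 95% interval; points need 20 UMIs in both libraries together. Fosb, Egr1 and Nr4a1 lie below 0 in all 7 clusters, and the lowest Nr4a1 ratio is -0.99, in the Arg1 macrophage-like cluster led by Slc7a2.

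In sign, the pattern held across macrophage subsets. Fos, Fosb, Junb, Egr1 and the 3 NR4A genes were lower in the MWA plus TIGIT library in 7 of 7 TAM-like clusters. The interval lay below 0 in 7 clusters for Fosb and in 6 each for Fos, Egr1 and Nr4a1. It did so in 5 for Junb, 4 for Nr4a2 and 3 for Nr4a3. The ratios nearest 0 were -0.01 (Nr4a2) and -0.02 (Fos). The share of all genes lower in 7 of 7 clusters was not computed. In the Arg1 macrophage-like cluster led by Slc7a2, Nr4a1 stood at 165 CPM (1016 UMIs) and 82.8 CPM (733 UMIs), a log2 ratio of -0.99 (-1.13 to -0.85). In the C1q macrophage-like cluster (Ccl8, Selenop, Gpr34), the largest, it stood at 164 and 127 CPM (-0.37, -0.46 to -0.28). In the interferon-induced cluster (Rsad2, Ifit3, Cxcl10) all 9 genes that could be compared had an interval below 0, as had 5.08% of 8346 genes (Egr3 had under 20 UMIs), among them Fosb with 507 and 316 CPM (-0.68, -0.83 to -0.53) and Egr1 with 393 and 253 CPM (-0.64, -0.80 to -0.47). Higher values, with intervals that included 0, were found for Jun in the Hspb1 cluster (511 and 537 CPM), for Egr2 in the Slc7a2 cluster (10.5 and 12.5 CPM) and for Egr2 (14.4 and 15.1 CPM) and Egr3 (6.43 and 7.57 CPM) in the C1q cluster.

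Other immediate early genes were mostly lower as well in TAM-like cells. Of a list of 34, 32 could be compared, and 25 were lower and 7 higher in the MWA plus TIGIT library, with a median log2 ratio of -0.15. The most negative ratio in the list was that of Dusp5, a MAP kinase phosphatase (34.1 and 23.4 CPM, -0.55), and the highest that of Socs3, a cytokine signalling inhibitor (158 and 183 CPM, 0.21). Of 10 other AP-1 and partner genes, 8 were lower, with Maff at 14.1 and 11.1 CPM (-0.34), while Maf was higher (260.2 and 285 CPM, 0.13). The heat shock list, which is also sensitive to handling, had 7 genes higher and 5 lower of 12, and its summed level was 4927 and 4814 CPM. The TAM-like classes differed in depth (median 8804 and 10857 UMIs) and in the summed level of 8 C1q macrophage markers (30456 and 35470 CPM), and the part of these in the ratios was not tested.

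In CD8 T-like cells, 1 of the 10 genes passed 1.5-fold, in the lower direction, where 3.38% of 11115 genes did so, and none in the higher direction (5.68%). This was Nr4a3, at 35.9 and 22.9 CPM (log2 ratio -0.65, -0.89 to -0.40). It passed 1.5-fold in 7 of 9 alternative settings and was -0.42 at its weakest. The 9 include other count limits, which leave the ratio of a single gene unchanged by design. Nr4a3 was lower in 7 of 7 CD8 clusters, 4 of them with an interval below 0. Nr4a2 (75.9 and 60.8 CPM, -0.32, -0.48 to -0.16) and Fosb (114 and 97.1 CPM, -0.23, -0.36 to -0.11) were also lower. By cluster, Nr4a2 was lower in 6 of 7, with 1 interval below 0. Fosb was lower in 5 of 7, with 2 intervals below 0 and 1 above. The shares of all genes with such counts by cluster were not computed, and the clusters share the same 2 libraries. The exhausted-like cluster made up 321 of 1964 and 225 of 2070 CD8 T-like cells and the effector-like cluster 402 and 658. The part of this mix of clusters in the totals was not tested. The stem-like cluster led by Epb41l4aos was the largest in the MWA library (441 cells). Within the exhausted-like cluster Nr4a2 did not differ beyond counting error (204 and 190.2 CPM). The median log2 ratio over all genes was 0.13 in this class.

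The ratios differed in sign among CD8 clusters. In effector-like cells (Gzma, Ccl5, Trav16) Fos stood at 254 and 149.8 CPM (log2 ratio -0.76), Fosb at 126 and 80.8 CPM (-0.64) and Jun at 177 and 110.1 CPM (-0.69). The share of effector-like cells with none of the 10 genes, at 1000 UMIs a cell, was 31.1% and 42.7%. In the exhausted-like cluster Jun and Junb had the opposite sign. Jun stood at 144 and 181 CPM there (0.33, 0.08 to 0.59) and Junb at 683 and 811 CPM (0.25, 0.13 to 0.36). The difference between these clusters was not tested. Of 22 genes known to follow T cell receptor signalling, 10 were higher and 12 lower in CD8 T-like cells, none past 1.5-fold, while 70% of all genes were higher.

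In conventional CD4 T-like cells, 5 of the 9 genes compared were higher in the MWA plus TIGIT library, as were 66.6% of all genes, and 4 had an interval above 0 (11.3% of all genes). Of the 9, 1 passed 1.5-fold in the higher direction, where 9.11% of 8613 genes did so, and none in the lower direction (3.63%). Egr1 stood at 92.0 CPM (252 UMIs) and 158 CPM (357 UMIs), a log2 ratio of 0.78 (0.55 to 1.02). Junb stood at 846 and 1171 CPM (0.47, 0.39 to 0.55), Nr4a1 at 86.5 and 112 CPM (0.38, 0.11 to 0.64) and Fos at 193 and 245 CPM (0.34, 0.17 to 0.52). Of the 34 other immediate early genes, 24 were higher and 7 lower of the 31 compared. Egr1 kept its sign in 9 of 9 alternative settings but passed 1.5-fold in 5 of them, with log2 ratios from 0.41 to 0.79. The other count limits among these settings leave a single ratio unchanged by design. Fos kept its sign in 8 of 9, with a lowest ratio of -0.00076 where classes were set from marker UMIs, and Nr4a1 in 9 of 9, with a lowest ratio of 0.05 where doublet calls were kept.

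In regulatory T-like cells 9 of 10 genes were lower, as were 40.3% of all genes, and Junb was higher (1078 and 1208 CPM, 0.16, 0.07 to 0.25). The 1 gene past 1.5-fold, in the lower direction (5.32% of 8471 genes, with 8.26% in the other), was Egr3, with 53 UMIs in 18 cells and 31 UMIs in 16 cells (-0.76, -1.45 to -0.09). A single cell held 16 of the 53 UMIs. Nr4a1, which follows antigen receptor signals in these cells, stood at 205 and 151 CPM (-0.43, -0.67 to -0.20) and Jun at 348 and 285 CPM (-0.29, -0.46 to -0.11). In NK-like cells none of 8 genes compared passed 1.5-fold in either direction (11.7% of 5992 genes higher, 7.68% lower), and all 8 intervals included 0. The interval of Nr4a2 reached from -0.06 to 0.83 and that of Nr4a3 from -0.99 to 0.47, so that differences within them were not detectable with 592519 UMIs in the smaller library. Egr2 had 0 and 7 UMIs in these cells.

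Among myeloid cells other than macrophages, monocyte-like cells had ratios near 0 for the most abundant members. Of 10 genes, 1 was past 1.5-fold in the higher direction (5.58% of 9925 genes) and none in the lower (3.7%). This was Egr3, with 19 and 48 UMIs and an interval that included 0 (0.72, -0.07 to 1.57). Egr1 (258 and 295 CPM, 0.19) and Junb (1143 and 1228 CPM, 0.10) were slightly higher, and Fosb (320.1 and 283 CPM, -0.18) lower. Egr2 was scarce, with 61 and 136 UMIs (0.54, 0.10 to 1.00), and its direction turned in 2 of 9 alternative settings, to -0.52 with cells over 5000 UMIs left out and -0.17 with classes from marker UMIs. Junb turned in the same 2 settings (-0.11 and -0.05). Other count limits, which are among the 9 settings, leave both genes' ratios unchanged by design. The interval of Nr4a1 included 0 (210.4 and 220.1 CPM, 0.07, -0.06 to 0.19), and its difference from the TAM-like ratio was not tested. In neutrophil-like cells none of 7 genes compared passed 1.5-fold (12.3% of 1147 genes higher, 17% lower), and Junb alone had an interval apart from 0 (0.31, 0.08 to 0.54), in a class of 88703 and 100345 UMIs.

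In dendritic-like cells 1 gene was past 1.5-fold in the higher direction (14.6% of 6696 genes) and 2 in the lower (7.39%). Nr4a3 stood at 104.1 and 174 CPM (0.74, 0.37 to 1.11), Fosb at 427 and 260.0 CPM (-0.72, -0.95 to -0.48) and Egr3 at 183 and 119 CPM (-0.62, -0.97 to -0.27). These calls depended on how the class was drawn. With classes from marker UMIs, Nr4a3 turned to -0.19, Fosb was -0.35 and Egr3 -0.21, and with cells over 5000 UMIs left out Fosb turned to 0.83. The subsets that carry these genes were present in different numbers, with 55 and 28 type 1, 29 and 27 mature and 49 and 54 plasmacytoid dendritic-like cells. Egr1 (263 and 361 CPM) and Junb (754 and 905 CPM) were higher by less than 1.5-fold. Within type 1 dendritic-like cells the interval of Egr3 included 0 (321 and 308 CPM, -0.06, -0.44 to 0.31), whereas Fosb was lower (519 and 305 CPM, -0.77, -1.11 to -0.43) and Fos too (1409 and 942 CPM, -0.58, -0.78 to -0.39). Within the mature cluster Nr4a3 was higher (1.05, 0.56 to 1.57) and Nr4a2 lower, with 34 and 11 UMIs (-1.78, -2.91 to -0.76). The C1q macrophage markers summed to 955 and 2042 CPM and the heat shock list to 4177 and 4838 CPM in this class. In that list Hspa1a, an inducible chaperone, stood at 26.6 and 400.02 CPM (log2 ratio 3.91) and Hspa1b at 25.5 and 99.0 CPM (1.96). The part of these in the ratios of the 10 genes was not tested.

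**Figure D5:**
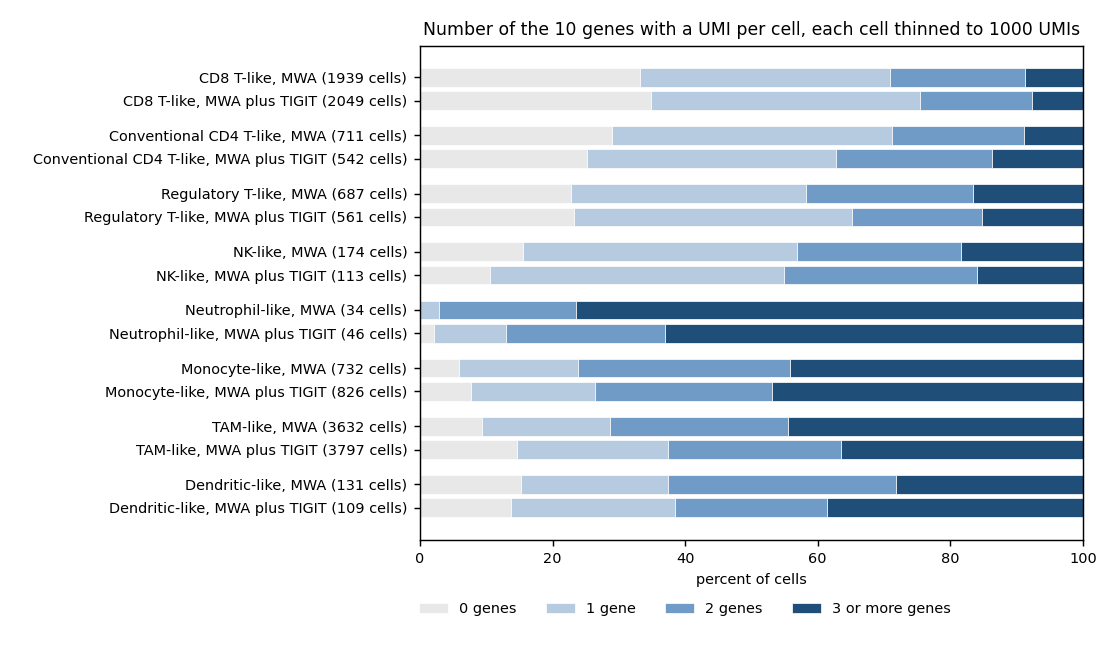
Percent of cells (horizontal axis) with a UMI of none, 1, 2, or 3 or more of the 10 genes, after each cell was thinned to 1000 UMIs and shallower cells were left out, for each broad class and library (rows, with the number of cells). Cells with 3 or more are most frequent in the neutrophil-like class, at 76.5% and 63.0%, and make up 44.4% and 36.4% of TAM-like cells and 8.66% and 7.61% of CD8 T-like cells.

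At equal depth, TAM-like and monocyte-like cells more often carried 3 or more of these genes than CD8 T-like cells did. After thinning to 1000 UMIs, 44.4% of TAM-like cells of the MWA library (95% binomial interval, exact, 42.8% to 46.0%) and 36.4% in the other library (34.9% to 38.0%) had a UMI of 3 or more of the 10 genes. Cells with none made up 9.33% and 14.6%. Monocyte-like cells with 3 or more made up 44.1% and 46.9%, and CD8 T-like cells 8.66% and 7.61%. Neutrophil-like cells reached 76.5% and 63.0%, over only 34 and 46 cells, since 53 and 31 were shallower than 1000 UMIs. Without thinning, a TAM-like cell held a mean of 43.4 and 47.2 UMIs of the 10 genes, which made 0.471% and 0.414% of the UMIs of the class.

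Many pairs of members were found in the same TAM-like cells more often than the product of their shares. Of the pairs with enough cells, 17 of 32 and 17 of 27 had a ratio of observed to product with an interval above 1, none had one below 1, and the median ratio was 1.20 and 1.27. In CD8 T-like cells it was 3 of 19 and 5 of 17 pairs, with medians of 1.23 and 1.28. The share of pairs of other genes with such an interval was not computed, so these counts have no background beside them. A class holds several subsets, and a mix of subsets and joint expression within a subset cannot be told apart here.

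Over 25 clusters in each library (50 profiles of log2 CPM, which share libraries and are not independent), the member pairs most alike were Fos with Fosb (r = 0.88), Fos with Jun (0.87) and Fos with Egr1 (0.82). The neutrophil-like cluster, where Jun, Junb and Egr1 stood highest, was left out of these profiles. It held 88703 UMIs in the MWA library, under the limit of 100000 UMIs in each library. Outside the members, Fos was most like Lpcat2 (0.96), Alox5ap (0.95) and Hexa (0.95), genes high in myeloid clusters, and Fosb most like Kctd12 (0.91), Clec12a (0.91) and Unc93b1 (0.91). Jun was most like Runx1 (0.88) and the immediate early genes Dusp1 (0.86) and Zfp36 (0.85), and Egr1 most like Man2b1 (0.90), Naaa (0.89) and Pdia6 (0.85). Junb had no close counterpart over these clusters, with 0.62 for Pts and Kdm6b and 0.59 for Madd. For the NR4A genes these were Serp1 (0.80), Nadk (0.79) and Btg2 (0.73) with Nr4a1, Cdc14a (0.78), Zyx (0.74) and Ubash3b (0.72) with Nr4a2, and Ly75 (0.81), Sri (0.76) and Gpr132 (0.76) with Nr4a3. Egr2 was most like Lims1, Alcam and Lacc1 (0.80, 0.80 and 0.77) and Egr3 most like Prr5, Epcam and Sept3 (0.72, 0.71 and 0.66). The profiles of Nr4a3 and Egr3 are led by small dendritic-like clusters.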

How the data were processed

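The deposited matrices hold whole-number UMI counts per gene and cell barcode, which the authors made with 10x Genomics chemistry and Cell Ranger on mm10, filtered to cells. The labels' processing notes name version 6.1.1 and the matrix header 4.0.0. Here, barcodes were required to hold 200 genes or more and no more than 10% of mitochondrial UMIs (179 and 276 were over the second limit), and the 806 and 786 with the highest scrublet scores (scanpy 1.11.5, 0.8% per 1000 cells) were left out as doublets. Seurat 5.3.0 (R 4.3.3) was run with 2000 variable and 3000 integration features and 40 components. The members and the lists of AP-1 partners, other immediate early and heat shock genes, 66 genes in all, were left out of the features. The T cell receptor induced list was not left out. Resolutions were 0.1 for all cells, 1 for T and NK cells and 0.5 for CD8 T and myeloid cells. Counts were summed per class and library. Intervals are exact Poisson for levels, exact conditional binomial for ratios and Clopper-Pearson for shares. Ratios needed 20 UMIs in both libraries together. A gene was counted as past the fold at 1.5-fold. No test was made, with 1 library per condition. The text names the 10 members, the 3 genes most alike by Pearson r over clusters, and members of the lists of AP-1 partners, other immediate early, heat shock and T cell receptor induced genes. In each class, the 2 highest and 2 lowest ratios of a list could be named. Members, lists and class markers were chosen with earlier results of these data known. Alternatives were TMM scaling (edgeR 4.0.16), other count, UMI, mitochondrial and doublet limits, members among the features, other resolutions, classes from marker UMIs, and thinning to 2000 UMIs. Other count limits change which genes are compared, not the ratio of a single gene. The ratio and interval code was tested on simulated data.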

Additional observations from a re-analysis of the deposited data

Results flagged for a closer look

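For 5 genes, the ratio between the libraries had opposite signs in 2 cell classes, with both 95% counting intervals apart from 0. None of these differences was tested, since each condition is 1 library. The share of all genes that meet the same rule was not computed. The log2 ratio (MWA plus TIGIT over MWA) of Fos was 0.34 in conventional CD4 T-like cells and -0.36 in dendritic-like cells, a difference of 0.71. For Junb it was 0.47 in conventional CD4 T-like and -0.10 in TAM-like cells, 0.57 apart. For Egr1 the values in the same classes were 0.78 and -0.27, 1.05 apart. For Nr4a1 they were 0.38 and -0.52, 0.90 apart. Nr4a3 was 0.74 in dendritic-like cells and -0.65 in CD8 T-like cells, 1.39 apart. The dendritic-like value rests on 98 and 165 UMIs and on a mix of subsets. With classes from marker UMIs, Fos in conventional CD4 T-like cells was -0.00076 and Nr4a3 in dendritic-like cells -0.19.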

How the results depend on the processing

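With 1 library per condition, the intervals do not cover differences between mice, tumors or captures. Those of levels and ratios do not cover differences between cells either. A treatment effect and a library effect cannot be told apart. No paired analysis was possible because each condition has 1 library and the labels carry no replicate numbers. The median ratio of the 10 genes in TAM-like cells was below 0 in 9 of 9 alternatives; 8 of the 10 were lower with cells over 5000 UMIs left out and 9 with classes from marker UMIs. The alternatives with other count limits repeat each reported ratio and could not differ, and the counts of alternatives and ratios here include them. Of the single ratios recomputed, 569 stayed within the interval of the reported value. In all, 40 of 644 had the opposite sign, 32 of them from a reported value whose interval included 0. The sign of 2 ratios past 1.5-fold turned: Fosb in dendritic-like cells (-0.72) was 0.83 with cells over 5000 UMIs left out, and Nr4a3 there (0.74) was -0.19 with classes from marker UMIs; the cause was not tested. The sign also turned for Egr2 and Junb in monocyte-like cells under both of these settings, for Fos in CD4 T-like cells with classes from marker UMIs and for Junb in CD8 T-like cells on the TMM scale. The number of genes past 1.5-fold changed as follows. With cells over 5000 UMIs left out it was 2 in CD8 T-like (1), 3 in CD4 T-like (1), 1 in NK-like (0), 0 in monocyte-like (1), 2 in TAM-like (0) and 4, of only 6 compared, in dendritic-like cells (3), the reported count in parentheses. With classes from marker UMIs it was 0 in CD8 T-like, 2 in CD4 T-like, 2 in regulatory T-like (1), 2 in NK-like, 0 in monocyte-like and 0 in dendritic-like cells (3). With doublet calls kept it was 0 in CD8 T-like, 2 in CD4 T-like and 1 in dendritic-like cells, and no cluster was named neutrophil-like, so that class has no value. It was 0 in CD4 T-like cells with members among the features or other resolutions, 0 in monocyte-like cells with other resolutions or at most 5% mitochondrial UMIs, and 1 in TAM-like cells on the TMM scale, which shifts ratios by -0.12 (CD4 T-like) to 0.06 (neutrophil-like). Without a filter on counts it was 2 in CD4 T-like, 1 in NK-like and 2 in neutrophil-like cells. Of the levels, in log2, Fos in TAM-like over CD8 T-like cells (3.57 and 3.51) was 3.18 and 2.97, and Nr4a1 in monocyte-like over TAM-like cells (0.56 and 1.15) was 0.93 and 2.03, with cells over 5000 UMIs left out; Nr4a1 was 0.98 and 1.37 with classes from marker UMIs. Nr4a3 in mature over other dendritic-like cells (2.26 and 3.21) was 1.08 and 1.75 with members among the features, 0.31 in the MWA library with cells over 5000 UMIs left out (interval -1.57 to 1.95), and 4.29 in the MWA plus TIGIT library with classes from marker UMIs, where Nr4a2 in exhausted-like cells was 1.96 (2.25) and Egr3 in type 1 dendritic-like cells 6.18 (4.11). Thinning to 2000 UMIs moved 123 shares and left 37 within their intervals.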

Other observations

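2 clusters that could not be named held high Fosb, the second of them in the MWA library alone. One, led by Cma1, Mcpt4 and Tpsb2, which mast cells are known for, stood at 1385 and 1057 CPM in 264 and 281 cells. The other, of 43 and 52 cells with median depths of 715 and 859 UMIs, was led by Gm42418, Lars2 and Ttn. It stood at 991 and 263 CPM, the second value being below the TAM-like level of the MWA plus TIGIT library (409.6 CPM).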
